A study of Rattus norvegicus with 8 samples.

Results

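Pulmonary artery smooth muscle cells of the rat were compared after 4 h and after 1 h with S-nitrosoglutathione (GSNO), which separates early genes that decline from genes that rise or fall late. Each time was measured on 2 arrays numbered 1 and 2, so the comparison used 4 of the 8 arrays of the series, paired by array number, and all 8740 of 8799 probe sets that are not control features of the array. The other arrays, 2 of untreated cells and 2 of cells exposed for 2 h, entered the same statistical fit. Cells of all groups were primary cultures from explants of pulmonary arteries of adult Sprague-Dawley rats from which endothelium and adventitia had been stripped, so the culture is not a tissue and the artery's other layers were removed. No time is given for the group of untreated cells. The sources disagree on the concentration of GSNO, with 100 μmol/L in the series design and 100 mmol/L in the treatment protocol. The series design names 2 independent preparations, but no label ties them to the array numbers. If the numbers are not the preparations, the p-values measure only the spread between arrays, which may be technical.

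GSNO is the nitrosated form of the tripeptide glutathione and serves in the laboratory as a donor of nitric oxide. In vascular smooth muscle, nitric oxide binds the haem of soluble guanylate cyclase, the enzyme then makes cyclic GMP, and cyclic GMP relaxes the muscle through its protein kinase. Nitric oxide and its donors also modify thiols, and modification of the sensor protein KEAP1 frees the transcription factor NRF2, which drives antioxidant genes through antioxidant response elements. Immediate early genes are transcribed within minutes of a signal without new protein, often through the factor CREB at cyclic AMP response elements, and their transcripts tend to be short-lived.

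Of the 99 genes named by rule or by list membership here, 79 had an entry in a RefSeq table of rat promoters (build GRCr8), each 250 bases before and 50 bases after a transcription start. All windows in the table were searched on both strands for TGACG, the short form of the cyclic AMP response element, for the full element TGACGTCA, and for TGACNNNGC, the core of the antioxidant response element. TGACG is part of TGACGTCA and can overlap TGACNNNGC. Among all 33469 windows, TGACG was present in 21.2%, TGACGTCA in 1.83% and TGACNNNGC in 12.1%. Genes that stood high at 1 h and declined numbered 18, of which 15 had a window. Of these, 7 (46.7%) held TGACG and 1 (6.67%) held TGACGTCA. Genes that stood high at 1 h and rose further included 4 with a window, and 2 of these (50%), Crem and Il6, held both TGACG and TGACGTCA. The NRF2 and antioxidant genes that rose included 12 with a window, and 6 of these (50%) held TGACNNNGC. Of all genes that rose late, 14 of 58 (24.1%) held it. These sets overlap, since Gclm, Gsta1, Me1, Sod2 and Txnrd1 hold the motif and belong to both, so their shares are not a contrast. Genes that fell late included 52 with a window, with TGACG in 16 (30.8%) and TGACNNNGC in 10 (19.2%). The shares over all windows count windows, while a gene of a set was counted if any of its windows held the motif. A gene with several windows would have more chances, so the 2 kinds of share cannot be compared directly. These matches describe letters in a window and were not tested.

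The following windows are shown as examples of each motif, from 3 genes that were high at 1 h and declined and 2 glutathione genes that rose between 1 h and 4 h. They were picked because they hold the motif, which 8 of the 15 early genes and 6 of the 12 antioxidant genes with a window do not. Gstp1 is not among those 12, since its brighter probe set, which counts for the list, was not called. Each is written 5′ to 3′ on the gene's own strand, with TGACG in capitals in Nr4a1, Nr4a2 and Ppp1r15a and TGACNNNGC in capitals in Gclm and Gstp1, on either strand. The Ppp1r15a window holds TGACGTCA, in which 2 of its 4 matches overlap, 66 and 63 bases before the start. Nr4a1 holds 4 matches, the nearest 53 bases before the start, and Nr4a2 holds 1, 8 bases before it. The match lies 172 bases before the start in Gclm and 61 bases before it in Gstp1.
Nr4a1 (chr7:134259888-134260187, plus strand): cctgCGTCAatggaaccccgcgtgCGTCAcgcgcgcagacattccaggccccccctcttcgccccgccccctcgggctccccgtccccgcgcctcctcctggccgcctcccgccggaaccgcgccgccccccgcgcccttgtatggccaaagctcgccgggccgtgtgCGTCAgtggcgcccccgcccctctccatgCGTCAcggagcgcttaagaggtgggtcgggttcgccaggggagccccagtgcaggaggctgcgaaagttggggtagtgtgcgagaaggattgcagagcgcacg
Nr4a2 (chr3:62104838-62105137, minus strand): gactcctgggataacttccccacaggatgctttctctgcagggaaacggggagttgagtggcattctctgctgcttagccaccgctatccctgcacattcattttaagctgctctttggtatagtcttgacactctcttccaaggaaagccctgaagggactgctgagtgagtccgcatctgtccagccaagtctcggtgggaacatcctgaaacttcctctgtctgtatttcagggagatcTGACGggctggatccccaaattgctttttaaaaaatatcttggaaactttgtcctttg
Ppp1r15a (chr1:105139547-105139846, minus strand): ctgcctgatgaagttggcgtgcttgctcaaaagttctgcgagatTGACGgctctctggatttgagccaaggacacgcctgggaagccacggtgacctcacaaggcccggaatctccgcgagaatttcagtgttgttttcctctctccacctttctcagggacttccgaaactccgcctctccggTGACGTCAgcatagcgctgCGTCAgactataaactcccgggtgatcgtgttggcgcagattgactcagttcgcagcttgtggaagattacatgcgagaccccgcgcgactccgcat
Gclm (chr2:213031885-213032184, plus strand): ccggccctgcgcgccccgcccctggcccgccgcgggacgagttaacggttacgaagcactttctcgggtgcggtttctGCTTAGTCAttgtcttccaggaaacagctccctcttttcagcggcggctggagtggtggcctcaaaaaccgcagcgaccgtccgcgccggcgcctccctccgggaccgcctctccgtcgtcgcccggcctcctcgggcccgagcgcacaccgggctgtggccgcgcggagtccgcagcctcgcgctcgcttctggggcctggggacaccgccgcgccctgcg
Gstp1 (chr1:210769656-210769955, minus strand): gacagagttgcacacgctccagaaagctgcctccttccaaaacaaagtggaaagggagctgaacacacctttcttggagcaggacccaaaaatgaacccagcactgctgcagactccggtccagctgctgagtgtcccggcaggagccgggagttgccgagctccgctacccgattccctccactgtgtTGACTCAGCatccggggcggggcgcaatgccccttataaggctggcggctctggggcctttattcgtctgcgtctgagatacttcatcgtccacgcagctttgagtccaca

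The median signal per array ran from 100.0 on the 4 h array numbered 1 to 141 on the 2 h array numbered 1, and signal at the 3′ end over that at the 5′ end was 0.926 to 1.11 in beta-actin and 0.934 to 1.08 in GAPDH. The arrays numbered 1 and those numbered 2 were scanned on different days. Within the arrays numbered 1, the 1 h array alone came from its chip lot, so lot and time cannot be told apart there. The 1 h and 4 h arrays numbered 2 shared a lot, and the difference between them is given for the genes described in full. Smooth muscle markers checked the label: Acta2, Tagln, Cnn1, Myh11 and Cald1 lay above the 40th percentile of signal on all 1 h and 4 h arrays, while Des lay below it on all of them. Summed over the 6 smooth muscle markers, signal was 46164 and 36677 at 1 h and 49327 and 30222 at 4 h. Of the markers of macrophages and leukocytes, 7 of 11 lay below that percentile on all 4 arrays, among them Lyz2, Cd3d, Itgam and Csf1r, and so did Vwf, Kdr, Icam2 and Sele among 8 endothelial markers and Sftpa1, Sftpc, Sftpd, Scgb1a1, Epcam and Krt19 among 9 markers of lung epithelium. Above it on all 4 arrays lay the leukocyte markers Cd14 and Cd74, the endothelial markers Flt1 and Thbd and the lung marker Sftpb. Myh3, Tnnt2, Tnnt3 and Myl2 among 18 markers of cardiac and skeletal muscle were also above it on all 4. Others of that list, such as Tnni2, Actc1, Myog and Myod1, lay below it on all 4. Fibroblast and adventitial markers were present in 6 of 7 cases, with Col1a1 and Col3a1 among them. Their summed signal was 19839 and 30545 at 1 h and 23533 and 17892 at 4 h, higher at 4 h between the arrays numbered 1 and lower between those numbered 2. The endothelial sum was 1473 and 1579 at 1 h and 1474 and 2700 at 4 h, of which Thbd made up 1123 and 2124 at 4 h. By the probe set of highest mean signal, limma called 0 genes of the 6 marker lists with or without the array number as a block, and at an unadjusted p below 0.05 it gave 1 endothelial gene, Thbd, higher and 1 fibroblast and 1 smooth muscle gene lower. In RNA from whole cultures, fewer cells of a type and less RNA per cell cannot be told apart.

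Between 1 h and 4 h, 156 of 5877 probe sets rose (2.65%) and 144 fell (2.45%), 300 in all (5.1%), in limma with the array number as a block and a Benjamini-Hochberg adjusted p below 0.05, which is what called means here. They covered 102 genes that rose and 98 that fell, and 0 genes were called in both directions. Taking for each of 3474 genes the probe set of highest mean signal, 85 rose (2.45%) and 91 fell (2.62%), 176 in all (5.07%). The gene lists below are counted the same way, so these are the shares to set beside their counts. The lists were chosen with earlier results of these data known. A high share of called members may thus be partly built in and is given as a description. The size of the called changes ran from 0.62 to 4.61 on the log2 scale among the rises, with 121 above a doubling, and from 0.59 to 3.84 among the falls, with 118 above a doubling. Log2 differences are on the scale of signal plus an offset of 21.1 units, which understates the change of weak probe sets. Every one of the 300 moved in the same direction in both pairs of arrays, and the 1 h and 4 h signals did not overlap for 149 of the 156 rises and 140 of the 144 falls. Over all 5877 probe sets, 3714 (63.2%) had the same sign in both pairs. The share without overlap over all probe sets is not given here. Calling with the block favours wide differences that agree between the pairs, so the counts of shared direction and of no overlap are given as a description.

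**Figure D1:**
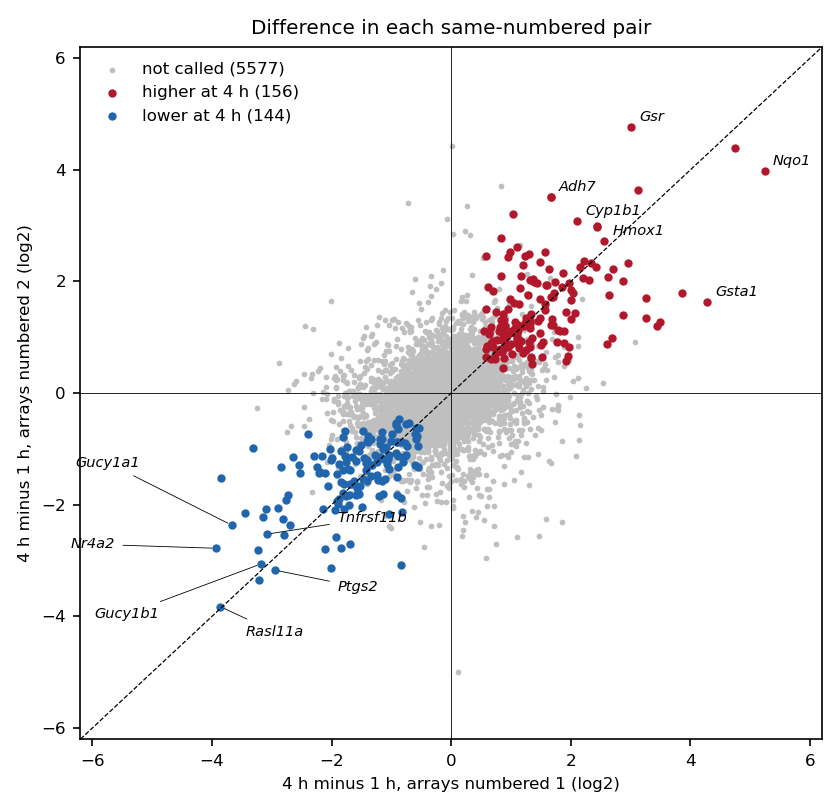
Log2 difference between 4 h and 1 h of each kept probe set in the arrays numbered 1 (horizontal) and in the arrays numbered 2 (vertical), with called rises in red, called falls in blue and the remaining probe sets in grey. All called points lie in the lower left or upper right part, which calling with the array number as a block favours. Nqo1 and Rasl11a mark the ends at 4.61 and -3.84 for the mean of the pairs.

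These counts rest on the pairing. Without the array number as a block, limma called 12 rises (0.204%) and 16 falls (0.272%), 28 in all (0.476%), and all 28 were among the 300. Over 1 probe set per gene there were 8 rises (0.23%) and 8 falls (0.23%), 16 in all (0.461%). Among the genes described here, 17 kept at least 1 called probe set without the block: Nqo1, Hmox1, Cyp1b1, Sod2, Il6, Cd55, Fgfr1 and Slc16a1 among the rises and Rasl11a, Ptgs2, Nr4a2, Id3, Gucy1b1, Tnfrsf11b, Sorbs2, Cnksr3 and Bdnf among the falls. Array records name the experiment of each array: the untreated and 2 h arrays numbered 1 came from one, the 1 h and 4 h arrays numbered 1 from another, and all arrays numbered 2 from one of their own. With this experiment as the block in place of the array number, called the experiment block here, limma called 101 rises and 100 falls, and 28 of the 96 called genes described here were no longer called by their most changed probe set. Without the 1 h array numbered 1 the counts were 53 and 40, without the 1 h array numbered 2 they were 61 and 71, and without the 4 h array numbered 1 they were 101 and 128. Scaling all arrays to a common median moved the median difference of all probe sets from -0.13 to 0.06, a shift of 0.19, and gave 193 rises and 86 falls, so rises made up 69.2% of calls in place of 52%.

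Mean log2 signal at 2 h lay between the 1 h and 4 h means for 149 of the 156 rises (95.5%) and 136 of the 144 falls (94.4%). Over all kept probe sets it did so for 2592 (44.1%). The rises and falls were called for a wide gap between 1 h and 4 h, so a 2 h mean inside that gap is given as a description. The median share of the change reached by 2 h was 43.0% for the rises and 39.98% for the falls. Called between 2 h and 1 h by limma were 2 rises (0.034%) and 0 falls (0%), 2 in all (0.034%), with 208 and 223 at an unadjusted p below 0.05. Between 4 h and 2 h, 12 probe sets rose (0.204%) and 20 fell (0.34%), 32 in all (0.544%).

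Set against untreated cells with a limit of 1 on the log2 scale, a doubling, the called probe sets fell into early, late and continued patterns. The falls held 28 probe sets that were above the limit at 1 h and had declined by 4 h. Of these, 12 were still above the limit at 4 h, in the genes Nr4a1, Nr4a2, Nr4a3, Errfi1, Tuba4a and Hoxa5. Another 12 were within the limit, among them Junb, Fos, Id1, Id3, Smad7 and Ppp1r15a, and 4 had gone below it, in Ptgs2, Rasl11a and Chrna1. Late falls, near untreated at 1 h and below the limit at 4 h, made up 93 of the 144, from 61 genes. Lbh was the 1 continued fall, already below the limit at 1 h, and 22 probe sets were lower at 4 h without passing it. Among the rises, 98 were late, from 67 genes, and 16 continued a rise that was above the limit at 1 h, in Hmox1, Gclc, Cyp1b1, Crem, Il6, Thbd and Dgat1. In 4 cases, Myc and Cited2 with 1 unnamed probe set, the 1 h signal lay below untreated by more than the limit and the level was on its way back. Hoxa5, Dgat1 and Cited2 lie outside the rule for naming genes and were named after their values were seen. The untreated arrays carry no time, so time in culture and GSNO cannot be told apart in these classes. In the arrays numbered 1 the untreated and 2 h arrays also came from another recorded experiment than the 1 h and 4 h arrays, so experiment and group cannot be told apart there.

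**Figure D2:**
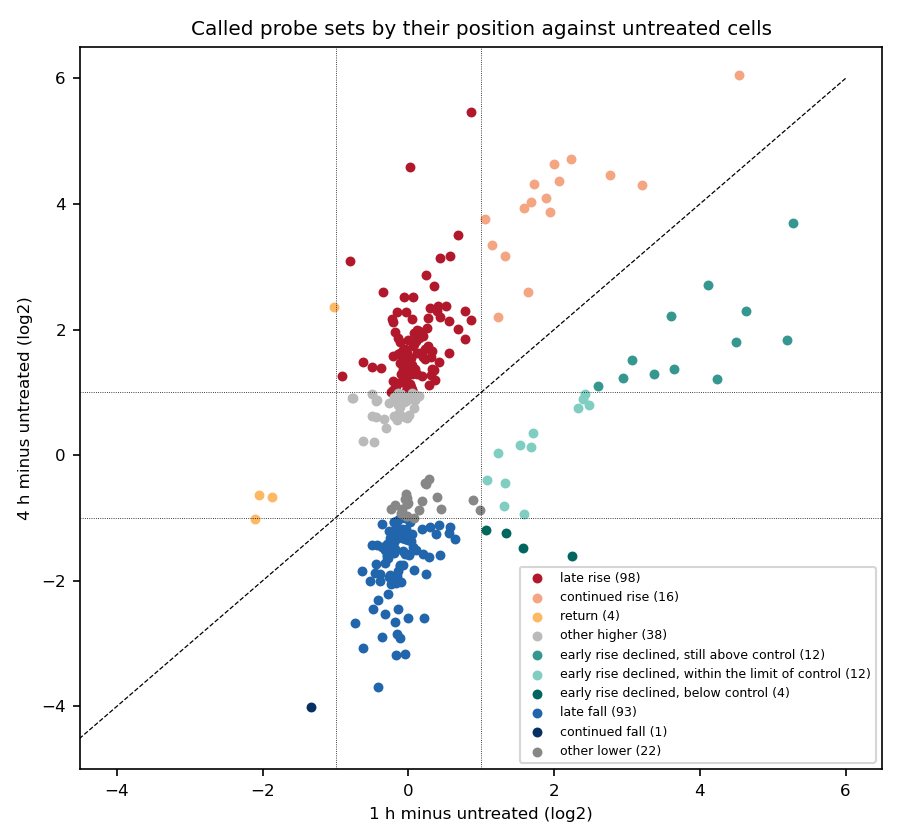
Called probe sets by their mean log2 difference from untreated cells at 1 h (horizontal) and at 4 h (vertical), coloured by class, with dotted lines at the limit of 1 and a dashed line where both times are equal. The 98 late rises and 93 late falls form a vertical band near 0 at 1 h, and the 28 early rises that declined lie to the right below the dashed line.

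The NR4A orphan nuclear receptors, immediate early transcription factors with no known natural ligand needed for their activity, were among the early genes that declined. Signal of Nr4a2 was 2653 and 2026 on the 1 h arrays numbered 1 and 2 and 154 and 277 on the 4 h arrays, with 19.7 and 79.5 on the untreated and 607 and 2343 on the 2 h arrays. Both 4 h arrays lay far below both 1 h arrays and above both untreated ones, and at 2 h the arrays differed, the array numbered 1 having fallen and the array numbered 2 not. The log2 difference was -3.36 ± 0.43 (SE; adjusted p = 0.00222, limma; 0.0853 without the block), with -3.93 and -2.78 in the pairs. A second Nr4a2 probe set gave -3.02 ± 0.37 (adjusted p = 0.00176; 0.0402 without the block). Nr4a1 went from 6127 and 8212 at 1 h to 669 and 1741 at 4 h, from 432 and 197 in untreated cells. The groups did not overlap, and the fall was -2.69 ± 0.47 on the log2 scale (adjusted p = 0.0104; 0.126 without the block), with -2.33 for its other probe set. Nr4a3 stayed high through 2 h, at 3547 and 3712, and dropped from 3624 and 3071 at 1 h to 971 and 1256 at 4 h. This was a difference of -1.58 ± 0.38 (adjusted p = 0.0413; 0.0741 with the experiment block; 0.0608 with a common median), and a dimmer probe set gave -2.53 (adjusted p = 0.00296).

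The AP-1 subunits, transcription factors that bind DNA as pairs, did not move as a family. Junb signal was 5559 and 2739 at 1 h and 1459 and 992 at 4 h, against 1002 and 463 in untreated cells, a difference of -1.68 ± 0.24 between the times (adjusted p = 0.004; 0.205 without the block). Both 4 h values were below both 1 h values. For Fos, 1 of 3 probe sets passed, with 316 and 539.6 at 1 h and 159.7 and 137 at 4 h (log2 difference -1.36 ± 0.32, adjusted p = 0.0404; 0.0693 with the experiment block; 0.0552 with a common median). The others gave -1.71 and -0.81. Jun rose by 1 of 4 probe sets, from 43.8 and 139 to 219 and 277 (log2 difference 1.39 ± 0.35, adjusted p = 0.0489; 0.0827 with the experiment block), while the others ranged from -0.87 to 0.71.

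Errfi1, a feedback inhibitor of the EGF receptor family, stood at 2233 and 3319.8 at 1 h and 947 and 1111 at 4 h, against 148 and 282 in untreated cells. Its difference was -1.39 ± 0.21 (adjusted p = 0.00521; 0.272 without the block), with -1.40 and -0.66 for its other probe sets, of which the first passed. Both 4 h arrays remained above both untreated arrays. Spry1, which restrains receptor tyrosine kinase signalling, was not high at 1 h and fell from 438 and 919.7 to 120.0 and 243, a difference of -1.77 ± 0.30 (adjusted p = 0.01). Of 7 kept MAP kinase feedback inhibitors, these 2 fell (28.6%, against 2.62% of all genes) and 0 rose in limma, with 4 and 0 at an unadjusted p below 0.05. The list median was -0.66 against -0.13 for all probe sets. Ppp1r15a, the stress-induced phosphatase subunit that lets translation restart, fell from 1103 and 1370.2 to 486 and 444 (log2 difference -1.36 ± 0.26, adjusted p = 0.0151; 0.0592 with a common median). Its other probe set gave -1.71 (adjusted p = 0.0507). The 4 h values of the first lay near its untreated values of 395 and 330.2.

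ID proteins block basic helix-loop-helix factors and are targets of bone morphogenetic protein (BMP) signalling, and Smad7 is an inhibitory SMAD that is not specific to BMP. Id3 was 3585 and 2887 at 1 h, 1454 and 2257 at 2 h and 792 and 666 at 4 h, against 1256 and 1315 in untreated cells. Every 4 h value was below every untreated value, and the difference between 4 h and 1 h was -2.12 ± 0.23 (adjusted p = 0.000928; 0.0334 without the block), with -1.86 for a second probe set. Id1 fell from 806 and 827 to 383 and 310.0, a difference of -1.20 ± 0.26 (adjusted p = 0.0294; 0.0565 with the experiment block; 0.0917 with a common median), and its other probe set gave -0.64. Smad7 went from 289.8 and 697 to 73.3 and 257 (log2 difference -1.54 ± 0.32, adjusted p = 0.0232; 0.722 without the block). Its arrays numbered 2 were higher than those numbered 1 at each time, so the drop is seen within the pairs more clearly than between the groups.

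Other members of the TGF-beta and BMP list changed as well. Of 32 kept genes, 6 fell (18.8%) and 1 rose (3.12%), against 2.62% and 2.45% of all genes. The median was -0.20, or -0.01 with a common median. Tgfb1 was the gene that rose, from 497 and 559 to 1631 and 1323 (1.44 ± 0.22, adjusted p = 0.00527). Tgfb3 moved the other way, from 5178 and 2829 to 1112 and 1052 (-1.80 ± 0.23, adjusted p = 0.00222). All 3 genes encode transforming growth factors beta, and the third, Tgfb2, fell by 0.95 (adjusted p = 0.0486; 0.0854 with the experiment block; 0.163 with a common median). Bmp3, a BMP family member that opposes the others, fell from 608 and 1090.5 to 62.9 and 244, with untreated cells at 734 and 1166. The difference was -2.49 ± 0.26 (adjusted p = 0.000862; 0.172 without the block), and -1.89 by its other probe set.

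Early genes that ended below untreated cells included Ptgs2, the inducible cyclooxygenase that makes prostaglandin precursors. Its signal was 315 and 168 in untreated cells, 851 and 626 at 1 h, 243 and 432 at 2 h and 92.2 and 50.6 at 4 h. The 4 h arrays were the lowest of all 8, and the difference from 1 h was -3.06 ± 0.37 (adjusted p = 0.00164; 0.0334 without the block), with -2.94 and -3.17 in the pairs. Ptgis, the prostacyclin synthase, rose from 3136 and 2697 to 6074 and 4799 (0.89 ± 0.17, adjusted p = 0.0155). Ptgs2 and Ptgis were the 1 fall and 1 rise among 8 kept prostaglandin enzymes (12.5% each, against 2.62% and 2.45% of all genes). Rasl11a, a small GTPase of the RAS family, showed the largest fall. It stood at 1589 and 1027 at 1 h and 89.9 and 52.6 at 4 h, against 377 and 168 in untreated cells. That is a difference of -3.84 ± 0.52 (adjusted p = 0.00278; 0.0402 without the block), or 14.4-fold, and -3.86 and -3.83 in the pairs. At 2 h its arrays numbered 1 and 2 differed, at 329.8 and 1078. Chrna1, the muscle acetylcholine receptor subunit, was 136 and 38.2 in untreated cells and fell from 127 and 379 at 1 h to 15.5 and 24.3 at 4 h (-2.58 ± 0.58, adjusted p = 0.0319), where both 4 h values were under the 40th percentile. Its 1 h signal stood above the untreated one in the arrays numbered 2 and not in those numbered 1, so its place among the early genes rests on 1 pair. Tuba4a, an alpha-tubulin, fell from 960.3 and 407 to 116 and 149.6 (-2.09 ± 0.47, adjusted p = 0.033; 0.0777 with the experiment block), still above its untreated 61.7 and 25.9.

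**Figure D3:**
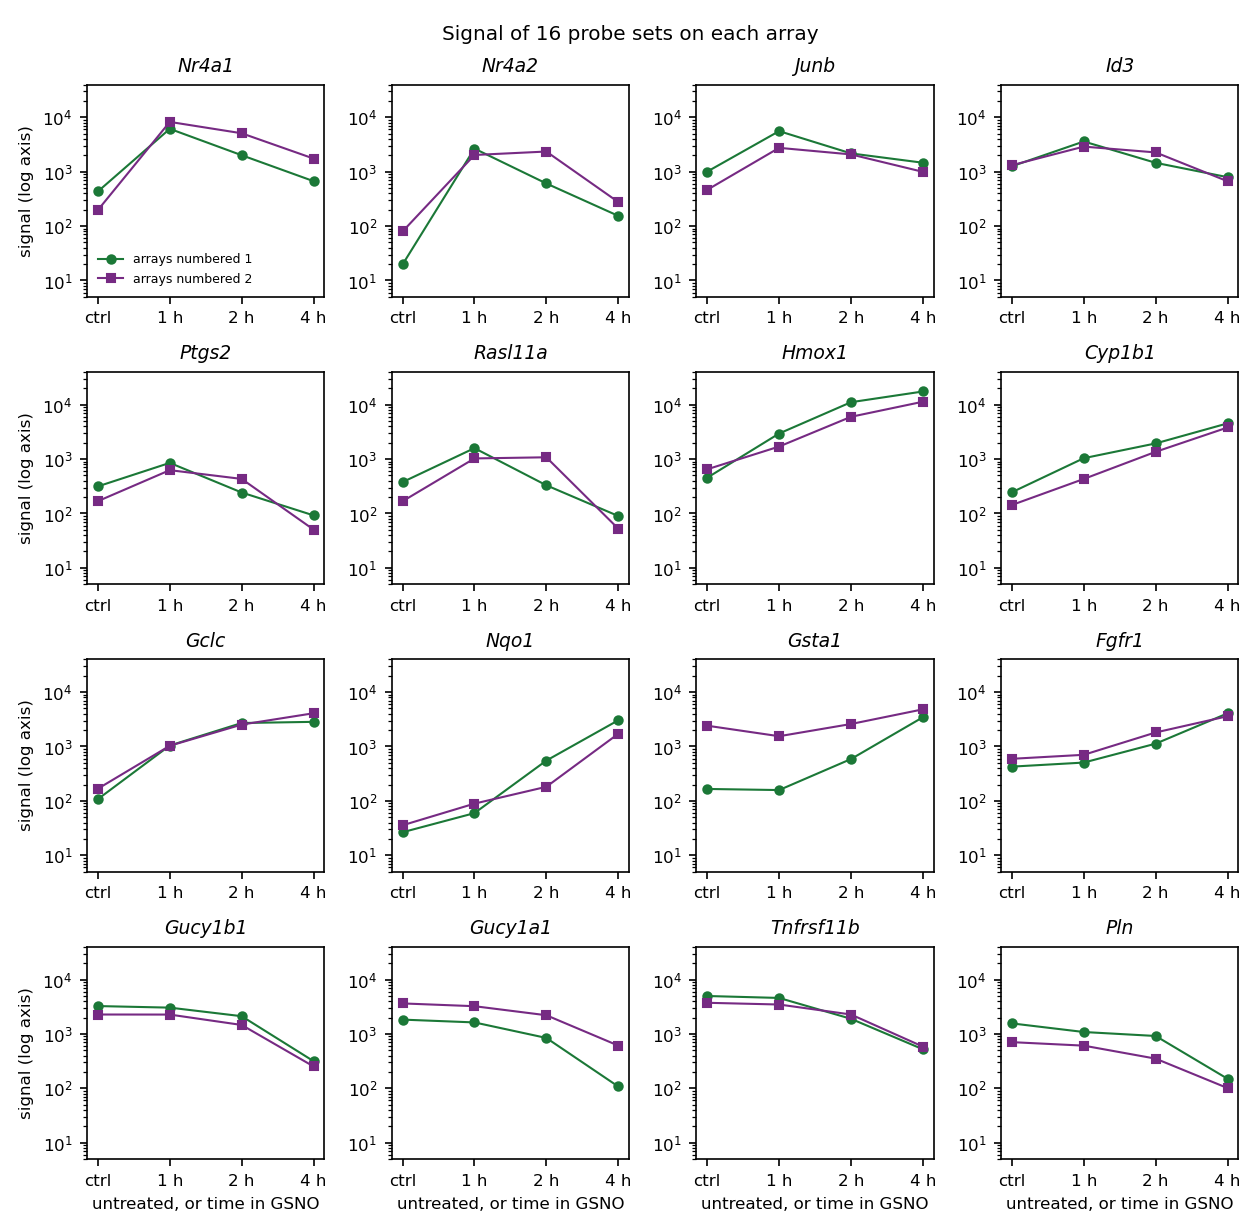
Signal on a log axis of 16 called probe sets in untreated cells and after 1, 2 and 4 h of GSNO, with circles for arrays numbered 1 and squares for arrays numbered 2; each is the gene's called probe set of largest change, for Nqo1 the dimmer one. Nr4a1, Nr4a2, Junb, Id3, Ptgs2 and Rasl11a peak at 1 h or 2 h, Hmox1, Cyp1b1 and Gclc are raised at 1 h and higher at 4 h, Nqo1, Gsta1 and Fgfr1 rise late, and Gucy1b1, Gucy1a1, Tnfrsf11b and Pln fall late.

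Not all early genes declined. Klf4, a zinc finger factor that represses smooth muscle contractile genes, was 7063 and 5893 at 1 h and 6107 and 5494 at 4 h, against 244 and 110.5 in untreated cells. The values at the 2 times overlapped, with a log2 difference of -0.15 ± 0.22 (adjusted p = 0.744), and -0.19 by the other probe set. Pde4b, which breaks down cyclic AMP, was 697 and 819 at 1 h and 998 and 913 at 4 h, a difference of 0.33 ± 0.20 (adjusted p = 0.43), and its other 3 probe sets gave -0.25 to 0.34. Crem, whose gene yields both activators and the repressor ICER of cyclic AMP-responsive transcription, continued to rise. It went from 3137 and 2089 at 1 h to 6118 and 3892 at 2 h and 5811 and 5189 at 4 h, from 278 and 239.9 in untreated cells. The difference between 4 h and 1 h was 1.09 ± 0.18 (adjusted p = 0.00851; 0.228 without the block), with 1.52 and 0.53 for its other kept probe sets, of which the last did not pass. Of 8 kept CREB targets, 4 fell (50%) and 1 rose (12.5%), against 2.62% and 2.45% of all genes. The falls were the NR4A receptors and Bdnf, the rise was Crem, and the list median was -0.85.

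Bdnf, the neurotrophin, was not raised at 1 h. Its most changed probe set gave 746 and 809.8 in untreated cells, 533 and 917 at 1 h and 133 and 116 at 4 h. All 4 h values were below all 1 h values, with a difference of -2.31 ± 0.26 (adjusted p = 0.0012; 0.035 without the block). The other kept Bdnf probe sets, which read different transcripts of the gene, gave -1.94 to -0.59. Egr1, an immediate early zinc finger factor, was likewise not raised at 1 h and fell from 2858 and 2527 to 811 and 805, with 4446 and 2257 in untreated cells. This was a difference of -1.71 ± 0.26 (adjusted p = 0.00547; 0.0843 without the block), and its other probe sets gave -1.94, -0.98 and -0.85. Btg1, an antiproliferative gene, fell from 2749.9 and 3281 to 1171 and 1454 (-1.19 ± 0.19, adjusted p = 0.00671; 0.0507 with a common median).

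Of 29 kept immediate early genes, 8 fell (27.6%) and 1 rose (3.45%), against 2.62% and 2.45% of all genes, and the median was -0.68. Without the block 2 fell and 0 rose in limma. The gene that rose was Myc, a growth-promoting factor that was lower at 1 h than in untreated cells. Its signal was 662 and 592 in untreated cells, 85.9 and 207 at 1 h and 279 and 555 at 4 h, so all 1 h and 4 h values stayed below both untreated ones. The log2 difference between 4 h and 1 h was 1.41 ± 0.32 (adjusted p = 0.0324; 0.0529 with the experiment block), and 1.99 by a second probe set that did not pass (adjusted p = 0.124). Edn1, the endothelin-1 precursor, was likewise lower at 1 h than in untreated cells: its signal was 1866 and 1056 in untreated cells, 168 and 162 at 1 h and 243 and 67.7 at 4 h. The 4 h arrays lay on either side of the 1 h arrays, and the difference was -0.28 ± 0.39 (adjusted p = 0.742).

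Antioxidant genes were frequent among the rises. Of 35 kept NRF2 and antioxidant genes, 15 rose (42.9%, against 2.45% of all genes) and 0 fell in limma, with 19 and 0 at an unadjusted p below 0.05 and 3 and 0 without the block, and 28 differences were positive with a median of 0.58. Nqo1, a quinone reductase and standard NRF2 target, had the largest rise on the array. It was 271 and 391 in untreated cells, 363 and 301 at 1 h, 4034 and 2491 at 2 h and 10284 and 6713 at 4 h. By this probe set the 1 h arrays did not stand above the untreated ones, and both 4 h arrays were the highest of all. Its difference was 4.57 ± 0.27 (adjusted p = 3.17e-05; 0.00435 without the block), or 23.7-fold, with 4.75 and 4.39 in the pairs. A dimmer Nqo1 probe set gave 4.61 ± 0.43, and there the 1 h arrays, at 59.6 and 89.0, did stand above the untreated ones, at 26.5 and 35.6. Hmox1, which breaks down haem, was already raised at 1 h, at 2949 and 1699 against 454 and 649, and reached 11100.0 and 5984 at 2 h and 17472 and 11324 at 4 h. Its difference was 2.64 ± 0.29 (adjusted p = 0.000928; 0.0417 without the block), and 2.48 by its other probe set.

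The enzymes of glutathione synthesis and reduction differed in their timing. Gclc, the catalytic subunit of the ligase that limits glutathione synthesis, was 108 and 167 in untreated cells, 1041 and 1030.4 at 1 h, 2700.2 and 2527 at 2 h and 2838 and 4084 at 4 h. It rose between 1 h and 4 h by 1.70 ± 0.21 (adjusted p = 0.00216; 0.0517 without the block). Gclm, the modifier subunit of the same ligase, was 153 and 177 in untreated cells, 309 and 170.2 at 1 h and 635 and 1080.5 at 4 h. Its rise was 1.76 ± 0.39 (adjusted p = 0.0303; 0.0757 with the experiment block; 0.181 without the block), smaller in the arrays numbered 1 (0.99) than in those numbered 2 (2.53), and its other probe sets gave 1.74 and 2.11. Gsr, which regenerates reduced glutathione, went from 32.2 and 8.02 to 408 and 773 by the probe set with the largest change (3.89 ± 0.60, adjusted p = 0.00526; 0.0908 without the block). Its 1 h values were under the 40th percentile, and brighter probe sets gave 1.63 and 1.17. Txnrd1, the cytosolic thioredoxin reductase, rose from 966 and 1739 to 2913 and 5298 (1.58 ± 0.17, adjusted p = 0.000862; 0.22 without the block). In the list of 9 kept genes of glutathione synthesis, precursor uptake and thiol reduction, these 4 rose (44.4%, against 2.45% of all genes) and 0 fell. At an unadjusted p below 0.05 there were 4 and 0, while Gss, which completes the tripeptide, gave -0.37.

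Glutathione S-transferases, which couple glutathione to electrophiles, rose by different amounts in the 2 pairs. Gsta1 was 158 and 1544 at 1 h and 3447 and 4818 at 4 h, with 166 and 2409.5 in untreated cells. Its level in the arrays numbered 1 before the rise was far below that in the arrays numbered 2, and the differences were 4.27 and 1.63. The joint difference was 2.95 ± 0.57 (adjusted p = 0.0165; 0.575 without the block), and its probe sets are of the type that can read related transferases. Gstp1 went from 2695 and 5194 to 17455 and 10300.3 (1.84 ± 0.34, adjusted p = 0.0145; 0.0516 with the experiment block), with 2.69 and 0.98 in the pairs, and its brighter probe set gave 1.28 (adjusted p = 0.0643). Gstm1 rose by all 3 probe sets, from 0.93 to 2.14. Those of other Gst genes on the list, Gsta3, Gsta4, Gstm2, Gstm5, Gstt1 and Gstt2, lay between -0.41 and 0.53 and were not called.

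The superoxide dismutases outside the cytosol rose late. Sod2, the mitochondrial form, went from 180.3 and 167 to 786 and 576, a difference of 1.83 ± 0.26 (adjusted p = 0.00312; 0.0407 without the block). Sod3, the secreted form, went from 924 and 612 to 1936 and 1917 (1.33 ± 0.23, adjusted p = 0.0102). The cytosolic Sod1 gave 0.52 and catalase, Cat, 0.03, and neither was called. Taldo1, a transaldolase, rose by 1.38 and Tkt, a transketolase, by 1.04 and 0.76. Malic enzyme Me1 rose by 4 of 5 probe sets, with 1.47 for the most changed, from 566 and 834 to 2045 and 1838. Ephx1, an epoxide hydrolase, rose by 0.90, and Gpx4, which reduces lipid peroxides, by 0.80.

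Cyp1b1, a cytochrome P450 that is a target of the aryl hydrocarbon receptor, rose steadily. By one probe set it was 588 and 554 in untreated cells, 2606 and 1817 at 1 h, 6058 and 4652 at 2 h and 11599 and 8753 at 4 h. The groups did not overlap, and the difference between 4 h and 1 h was 2.20 ± 0.16 (adjusted p = 0.000168; 0.0331 without the block), with 2.14 and 2.26 in the pairs. The other 3 probe sets gave 2.59, 1.93 and 1.04, the last with an adjusted p of 0.0507. Among the 15 largest rises were also the alcohol dehydrogenases Adh7 and Adh1c. Adh7 was under the 40th percentile on both 1 h arrays and reached 126 and 616 at 4 h (2.58 ± 0.55, adjusted p = 0.0259). Adh1c went from 20.04 and 146 to 372 and 405 (2.30 ± 0.54, adjusted p = 0.0392; 0.0563 with the experiment block), and its brighter probe set gave 0.20 (adjusted p = 0.694). Another alcohol dehydrogenase, Adh5, which lies outside the naming rule, gave 0.22 (adjusted p = 0.562).

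Inflammatory genes went both ways, with 6 of 26 kept genes rising (23.1%) and 2 falling (7.69%), against 2.45% and 2.62% of all genes. Il6, the cytokine, rose by both probe sets, from 31.4 and 48.9 to 263 and 536 by one (2.71 ± 0.41, adjusted p = 0.00452; 0.0467 without the block). By the brighter one it stood at 26.6 and 15.8 in untreated cells, 127 and 187 at 1 h, 837 and 403 at 2 h and 669 and 1057 at 4 h. Every 4 h value exceeded every 1 h value. Cd55, which protects cells from complement, went from 63.4 and 58.1 to 437 and 605 (2.71 ± 0.34, adjusted p = 0.00216; 0.0367 without the block), with 1.01 for its other probe set (adjusted p = 0.216). Tnfrsf1a, a receptor of tumour necrosis factor, rose by 1.53, Stat3, a cytokine signal transducer, by 1.31 in 1 of 2 probe sets (the other gave -0.72), and Nfkb1, the p50 subunit of NF-kB, by 0.82 (adjusted p = 0.033; 0.0757 with the experiment block). Sod2 also belongs to this list.

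Tnfrsf11b, the secreted decoy receptor osteoprotegerin, was one of the 2 that fell, beside Ptgs2. It was 4974 and 3732 in untreated cells, 4582 and 3469 at 1 h, 1894 and 2273 at 2 h and 522 and 584 at 4 h. The 4 h arrays lay at a small part of every other array, with a difference of -2.81 ± 0.21 (adjusted p = 0.000168; 0.012 without the block), or 6.99-fold. Cmklr1, the chemerin receptor, rose from 66.2 and 58.9 to 412 and 304 (2.17 ± 0.48, adjusted p = 0.0303; 0.0735 with the experiment block), although its untreated arrays differed at 282 and 59.7. Thbd, thrombomodulin, rose from 391 and 794 to 695 and 1739 (0.95 ± 0.21, adjusted p = 0.0286; 0.0578 with the experiment block), and the brighter probe set gave 0.76 (adjusted p = 0.153). Of the other endothelial markers, Vwf, Kdr, Icam2 and Sele were under the 40th percentile on all 1 h and 4 h arrays, Flt1 was above it on all 4 (264 and 262 at 1 h, 171 and 177 at 4 h), and Pecam1 and Nos3 were above it on some. Their part in the Thbd result was not tested.

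Of 35 kept growth factors and receptors, 1 rose (2.86%), Fgfr1, and 2 fell (5.71%), Nrg1 and Bdnf, near the 2.45% and 2.62% of all genes. Its signal was 426 and 594 in untreated cells, 506 and 703 at 1 h, 1127 and 1811 at 2 h and 4066 and 3599 at 4 h. The groups were apart, with a difference of 2.64 ± 0.22 (adjusted p = 0.000263; 0.0274 without the block), and 1.91 and -0.81 for its other probe sets, the last not called. Nrg1, a ligand of the ERBB receptors, fell from 571 and 495 to 125 and 204 in 1 of 4 kept probe sets, the others giving -1.21 to -0.09 (-1.61 ± 0.30, adjusted p = 0.0151). Medag, a gene linked to adipocyte differentiation, rose from 436 and 1811 to 6612 and 6319 (2.82 ± 0.50, adjusted p = 0.0119; 0.322 without the block), by 3.86 and 1.79 in the pairs. Hrk, which promotes cell death, rose from 29.8 and 32.2 to 312 and 226 (2.46 ± 0.40, adjusted p = 0.00789). Both 1 h values of this Hrk probe set were under the 40th percentile, and its other probe sets did not pass the filter on low signals.

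In the glycolysis and hypoxia list 5 of 29 kept genes were higher (17.2%, against 2.45% of all genes), 3 of them transporters, and 0 lower in limma. At an unadjusted p below 0.05 there were 9 higher and 1 lower, and without the block 1 and 0. Slc16a1, a monocarboxylate transporter, went from 382 and 635 to 2017 and 3283 (2.34 ± 0.18, adjusted p = 0.000195; 0.0417 without the block), with 2.34 and 2.33 in the pairs. Slc16a3, which exports lactate, rose by 1.07 (adjusted p = 0.0236; 0.0501 with the experiment block). Slc2a1, the glucose transporter GLUT1, rose from 664 and 374 to 1304 and 2113 (1.69 ± 0.34, adjusted p = 0.0185), by 0.95 in the arrays numbered 1 and 2.44 in those numbered 2. The glycolytic enzymes Pfkl and Pkm rose by 1.05 (adjusted p = 0.0277; 0.0599 with the experiment block) and 0.66 (adjusted p = 0.0486; 0.0985 with the experiment block; 0.0836 with a common median). The list median was 0.13, or 0.32 with a common median. Eno1 rose by 0.62 in 1 probe set (adjusted p = 0.0489; 0.0939 with the experiment block; 0.0861 with a common median), while its brighter one gave -0.03.

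Among 53 kept genes of the mitochondrial respiratory chain and ATP synthase, 4 rose (7.55%, against 2.45% of all genes) and 0 fell in limma, with 17 and 1 at an unadjusted p below 0.05 and 0 in either direction without the block. The list median was 0.31 (0.51 with a common median), with 0.30 and 0.18 in the pairs, and 38 of the 53 differences were positive. Ndufa5, a complex I subunit, went from 2281 and 1335 to 4535 and 4358 (1.34 ± 0.20, adjusted p = 0.00441). Its arrays at 1 h were apart, yet each pair rose. Cyc1 of complex III rose by 0.75 (adjusted p = 0.0427; 0.0704 with the experiment block) and Atp5pd of the ATP synthase by 0.74 (adjusted p = 0.0204; 0.0549 with the experiment block). Cox5b of complex IV rose by 0.67 (adjusted p = 0.0376; 0.0743 with the experiment block; 0.0524 with a common median), while a second Cox5b probe set gave a difference of -0.08 and 0.07 in the pairs.

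Bmal1, the core activator of the circadian clock, rose from 131 and 13.4 to 462 and 375 (2.59 ± 0.47, adjusted p = 0.0127), and by 2.43 in its other probe set. Nr1d2, which represses Bmal1, fell from 224 and 450.4 to 94.6 and 219 (-1.03 ± 0.25, adjusted p = 0.0413; 0.0598 with the experiment block; 0.119 with a common median). These were the 1 rise and 1 fall among 10 kept clock genes (10% each, against 2.45% and 2.62% of all genes). Nr1d1, a relative of Nr1d2, fell by one probe set (-1.98, adjusted p = 0.0412) and gave -1.11 by the brighter one, which counts for the list and was not called. Of 33 kept cell cycle genes, 3 rose (9.09%) and 1 fell (3.03%), against 2.45% and 2.62% of all genes. Cdkn1a, the p21 inhibitor of cyclin-dependent kinases, rose from 579 and 544 to 1183 and 1202 (1.06 ± 0.24, adjusted p = 0.0367), with 0.88 for its other probe set (adjusted p = 0.139). Cdc25b, a phosphatase that activates these kinases, rose from 138 and 184 to 324 and 457 (adjusted p = 0.037), with 0.34 for its other kept probe set (adjusted p = 0.742). The others were Myc and Btg1. In the cholesterol and lipid list of 17 kept genes, Scd, a fatty acid desaturase, rose by 1.68 and Msmo1, a sterol oxidase, fell from 1618 and 1251 to 598 and 533 (-1.30 ± 0.18, adjusted p = 0.00351), with -0.96 for its other probe set (adjusted p = 0.0741). Scd and Msmo1 were the 1 rise and 1 fall of that list (5.88% each, against 2.45% and 2.62% of all genes).

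**Figure D4:**
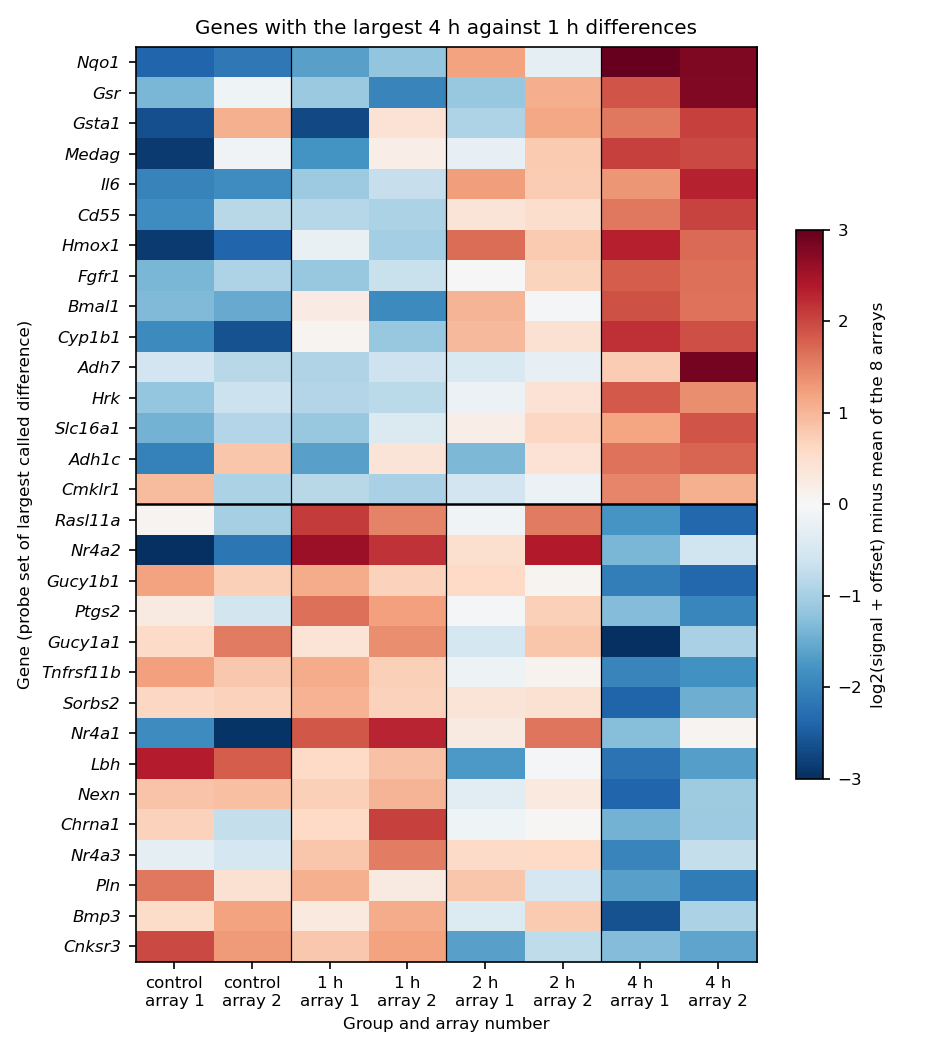
Log2 signal of the 15 genes with the largest rise (above the line) and the 15 with the largest fall (below it) on each of the 8 arrays, each gene centred on its own mean. Among the rises, Hmox1, Cyp1b1 and Il6 were already above untreated at 1 h, and among the falls the NR4A genes, Ptgs2 and Rasl11a are highest at 1 h or 2 h while Gucy1a1, Gucy1b1, Sorbs2 and Pln are bright in untreated cells and at 1 h.

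The late falls included the receptor for nitric oxide itself. Of 19 kept genes of nitric oxide and cyclic GMP signalling, 5 fell (26.3%) and 0 rose in limma, against 2.62% and 2.45% of all genes. At an unadjusted p below 0.05 there were 8 falls and 1 rise. The list median was -0.52, or -0.34 with a common median. Gucy1b1, the haem-carrying beta subunit of soluble guanylate cyclase, was 3249 and 2273 in untreated cells, 3041 and 2267 at 1 h, 2116 and 1459.9 at 2 h and 315 and 253 at 4 h. Its level at 1 h was near that of untreated cells in each pair, and both 4 h arrays were far below all others. The difference was -3.12 ± 0.17 (adjusted p = 2.72e-05; 0.012 without the block), or 8.72-fold, with -3.19 and -3.06 in the pairs. Gucy1a1, the alpha subunit, was 1831 and 3633 in untreated cells, 1626 and 3231 at 1 h, 843 and 2204 at 2 h and 108 and 610.2 at 4 h. It fell by 3.02 on the log2 scale (SE 0.29, adjusted p = 0.000518; 0.189 without the block), and by more in the arrays numbered 1, with -3.67 and -2.36 in the pairs. Between 4 h and 2 h, the log2 differences were -2.55 for Gucy1b1 (adjusted p = 0.00019) and -2.28 for Gucy1a1 (adjusted p = 0.0127).

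Calcium handling genes lay in the same list. Pln, phospholamban, which restrains the calcium pump of the sarcoplasmic reticulum, was 1560.2 and 705 in untreated cells, 1083 and 608 at 1 h, 916 and 351 at 2 h and 149.7 and 101 at 4 h. All 4 h values were below all others, with a difference of -2.53 ± 0.24 (adjusted p = 0.000518; 0.115 without the block). Itpr1, a channel that releases calcium from stores, fell from 893 and 1091 to 327 and 586 in its brightest probe set (-1.13 ± 0.20, adjusted p = 0.0102; 0.0536 with a common median), and its other 3 kept probe sets, none called, gave -1.63 to -0.81. Npr3, the clearance receptor for natriuretic peptides, fell from 688 and 601 to 137 and 262 (-1.65 ± 0.30, adjusted p = 0.0137), and by 1.23 in its other probe set. Of 36 kept channels and calcium store genes, 3 fell (8.33%, against 2.62% of all genes) and 0 rose in limma, with 11 and 1 at an unadjusted p below 0.05. The 3 were Pln and Itpr1, already counted in the nitric oxide list, and Kcne1. Kcne1, a potassium channel subunit, went from 163 and 128 to 31.3 and 36.0, under the 40th percentile at 4 h. Pln also counts in the contractile list. Among 8 kept phosphodiesterases, which break down cyclic nucleotides, limma called 0 in either direction, with 1 higher and 1 lower at an unadjusted p below 0.05, and the cyclic GMP enzyme Pde5a gave 0.07.

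Of 29 kept vasoactive ligands and receptors, 4 receptors fell (13.8%, against 2.62% of all genes) and 0 genes rose in limma. At an unadjusted p below 0.05 there were 4 falls and 2 rises. The 4 called receptors include Gpr176, an orphan receptor, and the list was chosen with earlier results of these data known. Agtr1a, the angiotensin II type 1 receptor, was 2243 and 1176 in untreated cells, 2409 and 1116 at 1 h, 1873 and 1029.9 at 2 h and 763 and 359 at 4 h. Levels in the arrays numbered 1 were higher than in those numbered 2 throughout, so the drop is clear within the pairs, at -1.63 and -1.58. The joint difference was -1.61 ± 0.17 (adjusted p = 0.000862; 0.337 without the block), and the other 3 probe sets gave -1.60, -1.34 and -0.99. Its close copy Agtr1b passed by 1 of 4 probe sets (-1.77, adjusted p = 0.037; 0.0591 with the experiment block), all of the type that can read related sequences. Gpr176 fell from 2440.4 and 2969 to 633 and 760.1 (-1.92 ± 0.21, adjusted p = 0.000888). P2ry6, a receptor for uridine nucleotides, fell from 366 and 451 to 155 and 114 (-1.47 ± 0.26, adjusted p = 0.0106), and the beta-3 adrenergic receptor Adrb3 by 1.31 (adjusted p = 0.0395; 0.0594 with the experiment block), to values under the 40th percentile.

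Of 34 kept adhesion and cytoskeletal genes, 7 fell (20.6%, against 2.62% of all genes) and 0 rose in limma, with 15 and 2 at an unadjusted p below 0.05. As this list was chosen with earlier results of these data known, its share is a description. Genes of proteins that link actin to adhesion sites were also among the 27 not called, such as, outside the naming rule, Tln1 (-0.51, adjusted p = 0.308), Pxn (-1.03, adjusted p = 0.12) and Actn4 (-0.74, adjusted p = 0.0661). Sorbs2, a scaffold of stress fibres, was 604 and 641 in untreated cells, 820.0 and 635 at 1 h and 55.9 and 127 at 4 h. Its difference was -2.80 ± 0.30 (adjusted p = 0.000862; 0.0274 without the block), with -2.15 and -1.07 for its other probe sets, the last not called. Nexn, an actin-binding Z-disc protein, went from 1434 and 1769 to 149 and 402 (-2.59 ± 0.28, adjusted p = 0.000862; 0.0516 without the block), and -0.99 by its other probe set (adjusted p = 0.131). For the probe sets given first, the 2 groups did not overlap in either gene. Pdlim5 and Pdlim1, which bind alpha-actinin, fell by 1.64 and 1.19, and the focal adhesion kinase Ptk2 fell from 1957 and 1686 to 569 and 857 (-1.35 ± 0.22, adjusted p = 0.00724). The integrin subunit Itga1 fell by 0.67 (adjusted p = 0.0465; 0.0788 with the experiment block; 0.422 with a common median), and Tuba4a has been described.

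Few contractile genes were called. Of 18 kept, Pln was the 1 that fell (5.56%, against 2.62% of all genes) and 0 rose in limma, with 4 and 0 at an unadjusted p below 0.05. The median was -0.10, or 0.11 with a common median. Acta2, smooth muscle actin, gave -0.06, Tagln -0.03 and Myh11, the smooth muscle myosin heavy chain, -0.32. Of 32 kept extracellular matrix genes, 1 fell (3.12%, against 2.62% of all genes) and 0 rose in limma, with 3 in each direction at an unadjusted p below 0.05. Plod2, a collagen lysyl hydroxylase, was the 1 that fell, from 5703 and 6492 to 2535 and 4005 (-0.93 ± 0.21, adjusted p = 0.0351; 0.0516 with the experiment block; 0.137 with a common median). Among 22 kept matrix proteases and inhibitors limma called 0, with 1 higher and 0 lower at an unadjusted p below 0.05.

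Cnksr3 and Lbh were among the 15 largest falls and lie outside the lists. Cnksr3, a scaffold linked to aldosterone-dependent sodium transport, was 2257 and 1388 in untreated cells, 998 and 1308 at 1 h, 165 and 322 at 2 h and 214 and 171 at 4 h. It had reached its low level by 2 h, and the difference between 4 h and 1 h was -2.45 ± 0.33 (adjusted p = 0.00278; 0.0402 without the block). Lbh, a transcriptional cofactor of limb and heart development, was 3003 and 2049 in untreated cells, 874 and 1075 at 1 h, 158 and 547 at 2 h and 107 and 167 at 4 h. Each pair went down at each step, and the difference was -2.67 ± 0.40 (adjusted p = 0.00473; 0.0838 without the block).

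In several lists nothing or nearly nothing was called between the 2 times. Among 41 kept cytosolic ribosomal proteins limma called 0, with 0 higher and 1 lower at an unadjusted p below 0.05, and the median was -0.03, or 0.17 with a common median. Among 27 proteasome subunits it called 0, with 3 higher and 0 lower at an unadjusted p below 0.05 and a median of 0.22, or 0.42 with a common median. The 21 kept heat shock proteins also gave 0, with 2 higher and 3 lower at an unadjusted p below 0.05, although Hsf1, the factor that drives them, rose by 1 probe set from 46.2 and 122 to 249.9 and 337 (1.67 ± 0.31, adjusted p = 0.0145) and gave -1.13 by the brightest. Of 26 genes of the unfolded protein response and the integrated stress response, Eif2ak3, the kinase PERK, rose by 1.26 (adjusted p = 0.0303; 0.0695 with the experiment block), with 0.64 for its other probe set, and Ppp1r15a fell. These were the 1 rise and 1 fall of that list (3.85% each, against 2.45% and 2.62% of all genes).

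**Figure D5:**
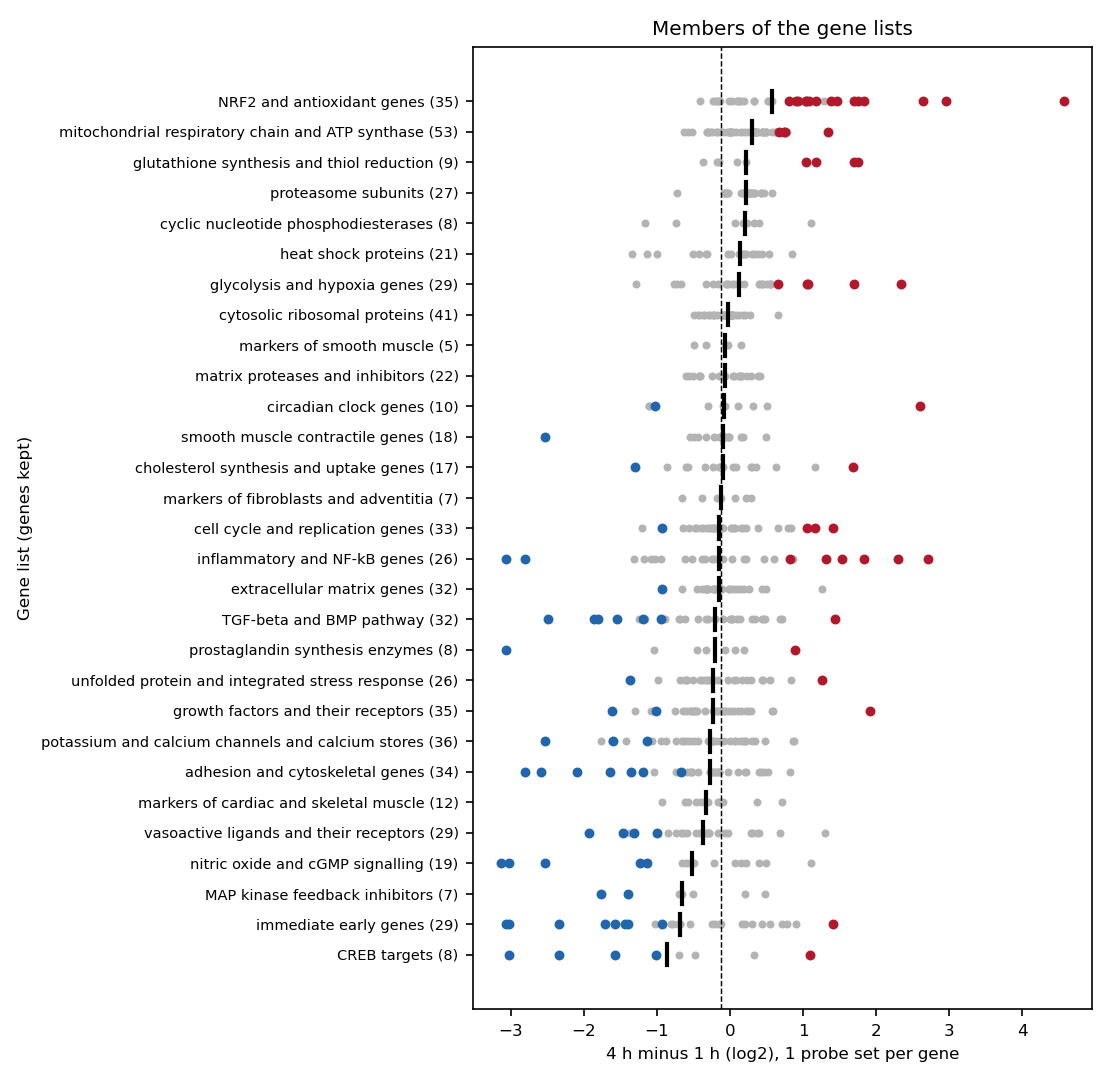
Log2 difference between 4 h and 1 h of every kept member of the gene lists with at least 5 kept genes, 1 probe set per gene, sorted by the list median (black bar), with called rises in red and called falls in blue. The dashed line marks the median of all kept probe sets, -0.13. Red points gather in the NRF2 and antioxidant list (15 of 35), blue points in the lists of immediate early genes (8 of 29) and of adhesion and cytoskeletal genes (7 of 34). All lists were chosen with earlier results of these data known, so this is a description.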

How the data were processed

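Total RNA of 8 samples was converted to biotin-labelled cRNA and hybridised to Affymetrix rat U-34A arrays, and the authors analysed the scans with Affymetrix software 5.0, per the labels' protocols and the series design. Each probe set has 1 linear intensity in the deposited table. The mean of signal without the lowest and highest 2% was 500.7 to 501.0 on the 8 arrays, so they were used as deposited. They hold no detection calls. Signal was offset by 21.1 units (the median of the arrays' 20th percentiles) before log2, and 5877 of 8740 probe sets that reached the 40th percentile on at least 2 arrays were kept. Gene names come from the platform annotation at GEO: 7018 probe sets had 1 symbol, 308 several and 1473 none here, and 6994 IDs were found in the RefSeq gene table.

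Tests used limma 3.58.1 in R 4.3.3 (lmFit, eBayes with a trend, two-sided, Benjamini-Hochberg over all kept probe sets, threshold 0.05) on all 8 arrays in 4 groups with the array number as a block, which left 3 residual degrees of freedom. The pairing comes from the array numbers in the labels: deviations of same-numbered arrays from their group means correlated at 0.387 to 0.569 in all pairs of groups. The block leaves each difference as it is and changes its error. Errors are SE of the fit, and 0 of 28 pairs of arrays held identical values. The number of arrays limits the precision.

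The members and the 32 gene lists were chosen with earlier results of these data known, and lists are described without a test, by the probe set of highest mean signal. Named are the 15 genes with the largest called rise and the 15 with the largest called fall that moved the same way in both pairs, called list members, and 14 genes fixed by name; the text gives a gene's called probe set of largest change or a brighter one. These 96 called genes had 87 other kept probe sets, of which 45 were called. The alternatives were the block left out or replaced by the recorded experiment, the 4 arrays alone, other offsets, filters and scalings, eBayes without a trend, and leaving out each array. The code was tested on simulated data.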

Additional observations from a re-analysis of the deposited data

How the results depend on the processing

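The 4 h against 1 h calls depended most on the pairing. Without the replicate block limma called 12 rises and 16 falls in place of 156 and 144. With the experiment named in the array records as a block it called 101 rises and 100 falls, and 28 of the 96 called named genes lost the call of their most changed probe set: Adh1c, Atp5pd, Cmklr1, Cox5b, Crem, Cyc1, Eif2ak3, Eno1, Gclm, Gstp1, Jun, Myc, Nfkb1, Pfkl, Pkm, Slc16a3, Slc2a1 and Thbd among the rises and Adrb3, Agtr1b, Errfi1, Fos, Id1, Itga1, Nr1d2, Plod2, Tgfb2 and Tuba4a among the falls. On the 1 h and 4 h arrays alone without the block it called 0 rises and 0 falls, with 221 and 241 at an unadjusted p below 0.05, and with the block 122 and 105. A common median for all arrays gave 86 falls, and eBayes without a trend gave 48 rises and 49 falls. Leaving out each array in turn gave 53 to 151 rises and 40 to 177 falls; the lone array of a group was then taken to vary like the others. Other offsets, filters and quantile normalization kept both counts within 1.5 times. Of the named genes, Klf4 and Edn1, neither of them called, changed sign. With a common median Klf4 went to 0.047 by the probe set described above and to 0.0084 by its other one. Klf4 ranged from -0.46 to 0.078 and Edn1 from -0.95 to 0.39 when 1 array was left out. With a common median 12 of the 96 called named genes lost that call, the rises of Cox5b, Eno1 and Pkm and the falls of Btg1, Fos, Id1, Itga1, Itpr1, Nr1d2, Plod2, Ppp1r15a and Tgfb2. Medians of lists near 0 (contractile, inflammatory, matrix, protease, cell cycle, cholesterol, clock and ribosomal genes) turned positive with a common median. The causes were not tested. With 2 arrays a group and no detection calls, probe sets under the 40th percentile in a group carry little more than a bound there, which applied to 10 rises at 1 h and 8 falls at 4 h.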

Other observations

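One probe set of Dcn, the matrix proteoglycan decorin, was chosen after its values were seen. It gave 16.1 and 25.9 at 1 h and 16.04 and 18.5 at 4 h, against 170.4 and 199.9 in untreated cells and 158 and 372 at 2 h. Between the 2 times compared here its log2 difference was -0.12 ± 0.40 (SE; limma adjusted p = 0.9), so the low level at both times is not seen in the comparison. The other kept Dcn probe set differed by -0.88 (adjusted p = 0.506), with -1.76 in the arrays numbered 1 and 0.0073 in those numbered 2. The 2 probe sets thus gave different courses, and the reason was not tested.

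Plpp1, a lipid phosphate phosphatase, and Bcat1, a cytosolic branched-chain aminotransferase, lie outside the rule for naming genes and were picked because limma called them without the replicate block as well. The 2 Plpp1 probe sets called without the block differed by -1.68 and -1.64 between 4 h and 1 h, and Bcat1 by 1.75.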
